A study of Mus musculus with 12 samples.

Results

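The regulators of mitochondrial biogenesis were followed in hind limb muscle of αB-crystallin/HspB2 KO and WT mice. They are Ppargc1a, Ppargc1b, Esrra, Esrrg, Nrf1, Gabpa, Tfam, Ppara and Ppard, 9 of 22923 distinct gene symbols, chosen by name for their role. They and the gene lists used below were chosen with earlier results of these data known. RNA of proximal hind leg muscle from male mice of 22 weeks on the FVB background had been sequenced, with 3 libraries in each of 4 groups, which were WT on normal chow, WT on high fat diet, KO on normal chow and KO on high fat diet. The sample titles call the WT mice Flox. The KO mice lack both αB-crystallin (Cryab) and the neighbouring small heat shock protein gene Hspb2 in the whole body from the germline on, so that muscle cannot be told apart from other tissues as the site of an effect, nor Cryab from Hspb2. The high fat diet took most of its calories from fat. Values are FPKM, fragments scaled to transcript length and to the fragments mapped in each library, so they can be compared between genes per length.

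PGC-1α and PGC-1β, encoded by Ppargc1a and Ppargc1b, are coactivators. They bind no DNA themselves but are drawn to genes by transcription factors. Their partners include the oestrogen-related receptors (Esrra, Esrrg) and the nuclear respiratory factors (Nrf1, Gabpa), which drive nuclear genes of the respiratory chain, and Tfam, the factor that packages and transcribes mitochondrial DNA, lies downstream of them. PPARα and PPARδ (Ppara, Ppard) are receptors for fatty acids that turn on genes of fatty acid uptake and oxidation, and in muscle this network is known for its response to exercise, fasting and dietary lipid.

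Cryab was at 412 to 837 FPKM in the 6 WT libraries and at 0.845 to 1.75 FPKM in the 6 KO libraries, and Hspb2 at 81.5 to 103 FPKM against 0.353 to 1.92 FPKM, so the titles' genotype held although a separate genotype label of 6 samples goes against it. The libraries were not alike in cell content. Summed lymphocyte markers (7 genes) were 73.3 FPKM in WT chow 2, 83.4 FPKM in KO chow 1 and 80.4 FPKM in KO chow 3, against 0.606 to 7.14 FPKM in the other 9 libraries. White adipocyte markers (7 genes) summed to 591 to 2171 FPKM in WT and 1800 to 4513 FPKM in KO libraries, and macrophage markers (6 genes) to 98.5 to 209 FPKM and 158 to 335 FPKM. Keratinocyte and hair follicle markers (5 genes) summed to 29.9 FPKM in WT high fat 2 and to 0.824 to 1.52 FPKM elsewhere. Schwann cell markers (5 genes) summed to 471 FPKM in WT chow 3 and to 274 to 437 FPKM in KO chow, against 101 to 225 FPKM in the remaining libraries. Skeletal muscle markers (7 genes) summed to 27903 to 70873 FPKM, although Acta1 is listed at 0 in 2 libraries and the fast myosin Myh4 in all 12, as can happen when an estimate fails. Depth in reads is unknown. Relative depth was estimated against WT chow 1 from the ratios of values under 0.1 FPKM. It ran from 1.02 to 1.34 in the other libraries and was highest in KO chow 1 (1.34) and KO chow 3 (1.30).

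Esrra was the most abundant regulator in muscle, at a mean of 56.8 FPKM over the 12 libraries (range 42.9 to 80.4 FPKM), above 93.3% of the 18589 genes detected. Ppard (15.0 FPKM) and Tfam (14.2 FPKM) came next, followed by Gabpa (7.96 FPKM), Ppargc1a (7.07 FPKM), Nrf1 (4.62 FPKM), Esrrg (4.04 FPKM), Ppara (2.41 FPKM) and Ppargc1b (1.35 FPKM). The order had 2 clear steps. Esrra lay above Ppard, and Tfam above Gabpa, in 12 of 12 libraries with ranges that did not overlap, whereas the ranges of the other neighbours overlapped. Ppargc1a was higher than Ppargc1b by level, and both coactivators were scarcer than their partner Esrra. The spread differed between the regulators. The highest library exceeded the lowest by 2.97 times for Ppara, 2.75 times for Ppargc1a, 2.49 times for Ppargc1b and 2.46 times for Esrrg, and by only 1.22 times for Nrf1.

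**Figure D1:**
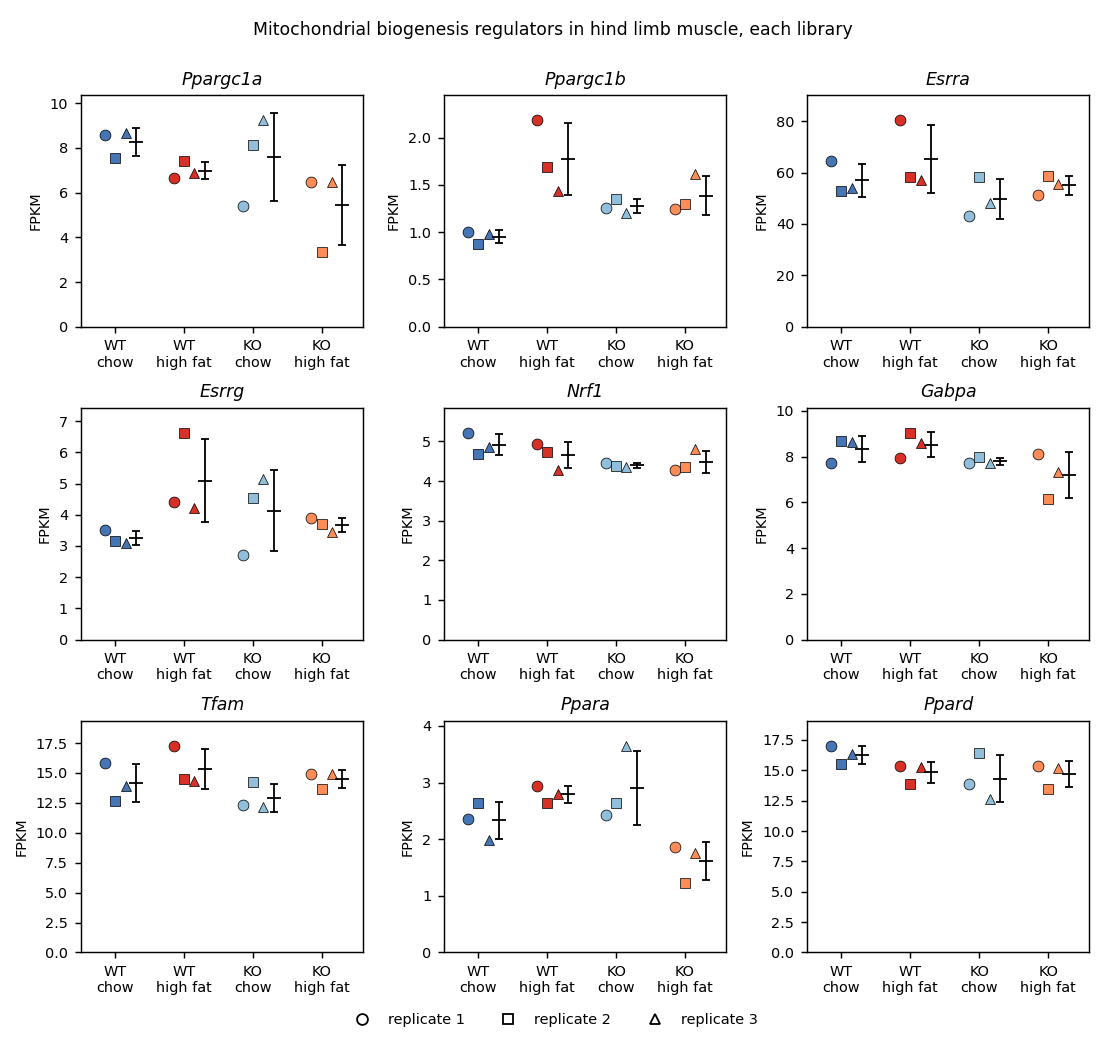
Level of the 9 regulators in every library, in FPKM on linear axes from 0, with 1 panel per gene. Points are the 3 libraries of each group (symbol by replicate number), bars are the group mean ± SD, and the lowest KO high fat point lies at 3.36 FPKM for Ppargc1a and 1.23 FPKM for Ppara.

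None of the 9 regulators passed an adjusted p of 0.05 in any of the 7 comparisons made with limma on log2(FPKM + 1), with Benjamini-Hochberg adjustment over the 11945 genes tested. All 9 entered the test, Ppargc1b although its 3 WT chow values were under the minimum of 1 FPKM. The comparisons share groups, so their counts are not independent of one another. Values are given with 95% intervals. The intervals and unadjusted p-values cover the spread between libraries, which the labels do not assign to separate mice.

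In WT mice, Ppargc1b and Esrrg were higher and Ppargc1a and Ppard lower on high fat diet in every library of the group, so 4 of 9 regulators had groups that did not overlap, where 13.1% of all genes had such groups, 6.2% of them higher and 6.88% lower. Of these, Ppargc1b and Esrrg had an unadjusted p under 0.05, as did 8.12% of all genes, 4.42% with a higher and 3.7% with a lower value, and 0.1% passed the adjusted threshold. The median log2 difference of the 9 was 0.11, against −0.013 over all genes. In KO mice, Ppara alone had groups that did not overlap, lower on high fat diet, in a comparison where 16.9% of genes had such groups and 6.14% were lower. It was also the only regulator with an unadjusted p under 0.05 (11.3% of all genes, 4.73% with a lower value), and 0 genes passed the adjusted threshold by limma. The regulators' median difference there was 0.022 (0.029 over all genes).

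On normal chow, 2 of 9 regulators had KO and WT libraries that did not overlap, Ppargc1b higher and Nrf1 lower in KO, with 18.4% of all genes doing so, 8.15% higher and 10.2% lower. None of the 9 had an unadjusted p under 0.05, against 16.7% of all genes and 0.0586% past the adjusted threshold. On high fat diet, all 9 log2 differences of KO minus WT were below 0, with a median of −0.22 against −0.011 over all genes, of which 47.1% were above 0. Ppargc1a, Esrrg and Ppara were lower in KO without overlap, 3 of 9 where 23.7% of all genes did not overlap and 10.7% were lower without overlap. Ppara and Gabpa had an unadjusted p under 0.05 (16.2% of all genes, 0.109% after adjustment). The signs of Tfam and Ppard were not stable, since their differences ran from −0.12 to 0.0076 and from −0.061 to 0.041 when single libraries were left out.

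The diet effect in KO minus that in WT had an unadjusted p under 0.05 for Ppara, Ppargc1b and Esrrg, each below 0, where 6.25% of all genes had such a p and 2.7% a negative one, and 0 genes passed the adjusted threshold by limma. Averaged over genotypes, diet gave 1 regulator an unadjusted p under 0.05, Ppargc1b, at 0.28 (adjusted p = 0.203, limma), with 13.9% of all genes so called and 0.0586% after adjustment. Averaged over diets, genotype gave 1, Gabpa, at −0.15 (adjusted p = 0.169, limma), in a comparison where 26.5% of all genes were called without adjustment and 0.862% with it. The 6 libraries of each diet overlapped for all 9 regulators, as did those of each genotype, where 0.728% and 2.71% of all genes did not.

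**Figure D2:**
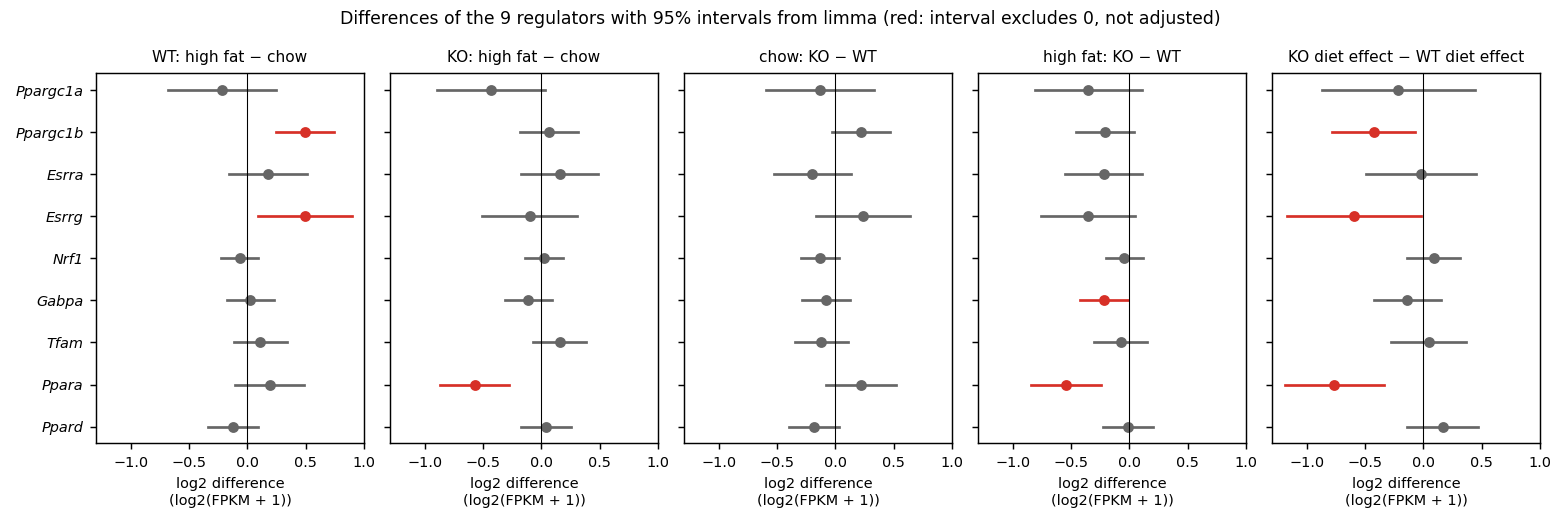
Log2 differences of the 9 regulators with 95% intervals from limma in the 4 pairwise comparisons and, at the right, the diet effect in KO minus that in WT (log2(FPKM + 1) scale). Red marks intervals that exclude 0 before adjustment, such as Ppara in KO mice at −0.57; none passed after adjustment.

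Of the coactivators, Ppargc1a was at 8.59, 7.56 and 8.67 FPKM in WT chow and 6.65, 7.40 and 6.89 FPKM in WT high fat libraries. The KO chow libraries had 5.40, 8.12 and 9.24 FPKM, and the KO high fat libraries 6.47, 3.36 and 6.48 FPKM. The WT groups were tight and apart, at 8.27 ± 0.619 and 6.98 ± 0.387 FPKM (SD, n = 3), whereas each KO group held 1 library well below the other 2, KO chow 1 and KO high fat 2. The high fat difference was −0.22 in WT (95% interval −0.68 to 0.25) and −0.43 in KO (−0.90 to 0.033), and averaged over genotypes it was −0.32 (−0.65 to 0.0047). Leaving out single libraries took the KO value from −0.63, without KO chow 1, to −0.17, without KO high fat 2. KO minus WT was −0.35 on high fat diet (−0.82 to 0.11), with all 3 KO libraries below all 3 WT libraries, and −0.093 without KO high fat 2. On normal chow it was −0.14 (−0.60 to 0.33), a value that ran from −0.28 to 0.062 when single libraries were left out.

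Ppargc1b, which shares much of the function of PGC-1α but is less bound to acute stimuli, was at 0.998, 0.875 and 0.985 FPKM in WT chow, 2.18, 1.69 and 1.43 FPKM in WT high fat, 1.26, 1.35 and 1.21 FPKM in KO chow and 1.24, 1.30 and 1.62 FPKM in KO high fat libraries. WT chow was the lowest group, with all 3 values under those of every other library, and WT high fat held the 2 highest values. In WT mice the mean on high fat diet was 1.86 times that on normal chow, with a log2 difference of 0.50 ± 0.11 (SE; 95% interval 0.24 to 0.75, adjusted p = 0.137 by limma). With a pseudocount of 0.1 in place of 1 this difference was 0.81, since the gene lies near the pseudocount. In KO mice the diet difference was 0.067 (−0.18 to 0.32), and the KO effect minus the WT effect was −0.43 (−0.78 to −0.073, adjusted p = 0.706 by limma). KO minus WT was 0.22 on normal chow (−0.032 to 0.47) and −0.21 on high fat diet (−0.46 to 0.041).

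Among the oestrogen-related receptors, Esrra was at 64.4, 52.8 and 53.8 FPKM in WT chow, 80.4, 58.1 and 56.9 FPKM in WT high fat, 42.9, 58.1 and 48.1 FPKM in KO chow and 51.2, 58.6 and 55.6 FPKM in KO high fat libraries. All 4 groups overlapped, and a single library, WT high fat 1, stood above the rest. High fat minus chow was 0.18 in WT (95% interval −0.16 to 0.51) and 0.16 in KO (−0.18 to 0.49), the latter −0.076 without the 3 lymphocyte-rich chow libraries. Without WT high fat 1 the WT difference was 0.018, and without KO chow 1 the KO difference was 0.057. KO minus WT was −0.20 on normal chow (−0.53 to 0.13) and −0.22 on high fat diet (−0.55 to 0.11). The gene's exons share 73 bases with Trmt112 on the opposite strand, which the library kit does not mark, so reads there cannot be told apart.

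Esrrg, the receptor of this family found most in oxidative muscle, was at 3.52, 3.16 and 3.10 FPKM in WT chow and 4.41, 6.62 and 4.22 FPKM in WT high fat libraries. The WT groups did not overlap, and WT high fat 2 was far above its 2 companions. Esrrg was at 2.70, 4.55 and 5.16 FPKM in KO chow and 3.88, 3.71 and 3.45 FPKM in KO high fat libraries, with the chow libraries on both sides of the high fat ones. The diet difference was 0.50 ± 0.18 (SE) in WT (95% interval 0.089 to 0.90, adjusted p = 0.438 by limma) and −0.10 in KO (−0.51 to 0.30). Without WT high fat 2 the WT difference was 0.32. The KO effect minus the WT effect was −0.60 (−1.17 to −0.023, adjusted p = 0.788 by limma). KO minus WT was 0.24 on normal chow (−0.17 to 0.64) and −0.36 on high fat diet (−0.76 to 0.047), where the groups did not overlap. The first of these was 0.091 without KO chow 3 and 0.46 without KO chow 1, and the second −0.19 without WT high fat 2.

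Slow and oxidative fibre markers (8 genes) summed to 378 FPKM in WT high fat 1, 2242 FPKM in WT high fat 3 and 3084 FPKM in WT high fat 2. Esrrg was at 4.41, 4.22 and 6.62 FPKM in these libraries, so the library with the lowest sum did not hold the least Esrrg. KO chow 3 had the lowest sum of its group, 872 FPKM, and the highest Esrrg of that group, 5.16 FPKM. Over the groups these markers summed to 526 to 1587 FPKM in WT chow, 872 to 1393 FPKM in KO chow and 1278 to 1966 FPKM in KO high fat libraries. The part of fibre content in the Esrrg values was not tested, nor was that of the hair follicle markers seen in WT high fat 2. In whole muscle, fewer fibres of a type and less RNA per fibre cannot be told apart, which holds for every regulator here.

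Of the nuclear respiratory factors, Nrf1 had the narrowest range of all 9 regulators. Nrf1, which binds promoters of respiratory chain genes, was at 5.21, 4.69 and 4.86 FPKM in WT chow, 4.95, 4.74 and 4.29 FPKM in WT high fat, 4.47, 4.37 and 4.35 FPKM in KO chow and 4.29, 4.36 and 4.81 FPKM in KO high fat libraries. The 3 KO chow libraries were nearly equal and lay under all 3 WT chow libraries, and the other groups overlapped. KO minus WT on normal chow was −0.13 (95% interval −0.29 to 0.028), and on high fat diet −0.044 (−0.20 to 0.12). The diet differences were −0.066 in WT (−0.23 to 0.094) and 0.022 in KO (−0.14 to 0.18), and neither interval holds a difference above 0.23 in size.

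Gabpa, the DNA-binding subunit of NRF-2, was at 7.70, 8.70 and 8.64 FPKM in WT chow, 7.93, 9.03 and 8.58 FPKM in WT high fat, 7.72, 7.98 and 7.71 FPKM in KO chow and 8.10, 6.13 and 7.33 FPKM in KO high fat libraries. The lowest value was in KO high fat 2, and the highest library of that group lay inside the WT high fat range. KO minus WT was −0.22 on high fat diet (95% interval −0.43 to −0.017, adjusted p = 0.271 by limma) and −0.085 on normal chow (−0.29 to 0.12). The former was −0.13 without KO high fat 2. High fat minus chow was 0.026 in WT (−0.18 to 0.23) and −0.11 in KO (−0.32 to 0.094). Its exons share 397 bases with Atp5j on the opposite strand, and reads there cannot be told apart.

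Tfam (chr10:71225464-71238280, minus strand, GRCm38) was at 15.9, 12.7 and 13.9 FPKM in WT chow, 17.3, 14.5 and 14.3 FPKM in WT high fat, 12.3, 14.2 and 12.1 FPKM in KO chow and 14.9, 13.6 and 14.9 FPKM in KO high fat libraries. The 2 groups overlapped in each of the 4 pairwise comparisons. High fat minus chow was 0.11 in WT (95% interval −0.12 to 0.34) and 0.16 in KO (−0.070 to 0.38), and KO minus WT was −0.12 on normal chow (−0.35 to 0.11) and −0.075 on high fat diet (−0.30 to 0.15).

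Of the fatty acid receptors, Ppara (chr15:85734983-85802819, plus strand, GRCm38) was at 2.36, 2.65 and 1.99 FPKM in WT chow and 2.94, 2.63 and 2.81 FPKM in WT high fat libraries. The KO chow libraries had 2.42, 2.64 and 3.65 FPKM and the KO high fat libraries 1.86, 1.23 and 1.76 FPKM. The 3 KO high fat libraries held the 3 lowest of all 12 values, and the other 3 groups overlapped one another. Group means were 2.33 ± 0.329, 2.79 ± 0.154, 2.90 ± 0.654 and 1.61 ± 0.339 FPKM (SD, n = 3) for WT chow, WT high fat, KO chow and KO high fat.

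In KO mice the mean of Ppara on high fat diet was 0.556 times that on normal chow, a log2 difference of −0.57 ± 0.14 (SE; 95% interval −0.87 to −0.28, adjusted p = 0.273 by limma). In WT mice the difference was 0.19 (−0.11 to 0.49). The KO effect minus the WT effect was −0.77 (−1.19 to −0.34, adjusted p = 0.522 by limma). On high fat diet KO minus WT was −0.545 ± 0.14 (SE; −0.84 to −0.25, adjusted p = 0.0963 by limma), and on normal chow 0.22 (−0.079 to 0.52). When single libraries were left out, the difference between KO and WT on high fat diet stayed between −0.61 and −0.43, with adjusted p-values from 0.0818 to 0.320, and the diet difference in KO between −0.66 and −0.44, with adjusted p-values from 0.103 to 0.807 (limma). The highest KO chow value, 3.65 FPKM, is in KO chow 3, a lymphocyte-rich library. Without the 3 such libraries the diet difference in KO was −0.49, from 1 chow library, and KO minus WT on high fat diet was −0.55. Macrophage markers were higher in KO high fat libraries, 163 to 335 FPKM summed against 110 to 145 FPKM in WT high fat, and so were white adipocyte markers, 1800 to 2272 FPKM against 591 to 1730 FPKM. Their part in the Ppara values was not tested. Grouped by the conflicting genotype label, KO minus WT on high fat diet was 0.47.

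Ppard, known as the main PPAR isotype of skeletal muscle, was at 17.0, 15.5 and 16.3 FPKM in WT chow, 15.4, 13.9 and 15.3 FPKM in WT high fat, 13.9, 16.4 and 12.6 FPKM in KO chow and 15.4, 13.5 and 15.2 FPKM in KO high fat libraries. WT chow lay just above WT high fat without overlap, and the KO groups overlapped. High fat minus chow was −0.13 in WT (95% interval −0.34 to 0.090) and 0.041 in KO (−0.17 to 0.26), the latter −0.011 under quantile normalization. KO minus WT was −0.18 on normal chow (−0.40 to 0.033) and −0.016 on high fat diet (−0.23 to 0.20).

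The promoters of the regulators were searched for the letters of their own network's binding sites, because several of these factors are known to act on one another's genes. RefSeq windows of 250 bases before to 50 bases after the start (GRCm38.p6) were at hand for 8 of the 9 genes, 12 windows in all, Ppargc1b being the exception. The palindrome bound by NRF-1, capitalised in the first stretch printed here, stood in 0.971% of all 32851 windows and in that of Ppara, 31 to 22 bases before the start. The letters CCGGAAGT, bound by ETS factors such as GABPα, stood in 3.89% of windows and in that of Tfam, 47 to 40 bases before the start. The letters TCAAGGTCA of oestrogen-related receptors (0.423% of windows) and the PPARs' direct repeat of AGGTCA with 1 base between its copies (0.0396%) were in no regulator's window. Both strands were searched, and the last pair of motifs shares the letters AGGTCA. The 2 stretches are shown with the motif in capitals, as the only matches among the regulators. A match is a string of letters, and binding was not measured.
Ppara, chr15:85735735-85735764, plus strand: gggctcggtgGCGCATGCGCgcggactagg
Tfam, chr10:71238073-71238102, minus strand: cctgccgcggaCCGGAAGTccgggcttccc
In the GENCODE annotation the Tfam stretch lies within an exon of Tfam, and the Ppara stretch in no exon.

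Several genes of lipid use that the PPARs are known to act on were higher on high fat diet in WT mice. Of 20 such genes, Ech1 and Decr1 rose past the adjusted threshold in WT mice given high fat diet, and 15 had a higher value with an unadjusted p under 0.05 and 0 a lower one, against 4.42% and 3.7% of all genes. The list's median difference was 0.61 (−0.013 over all genes). Ech1, a dienoyl-CoA isomerase, was at 147, 152 and 145 FPKM in WT chow and 278, 243 and 239 FPKM in WT high fat libraries, a log2 difference of 0.77 ± 0.085 (SE; adjusted p = 0.0125 by limma). Decr1, the mitochondrial dienoyl-CoA reductase, was at 54.3, 54.7 and 50.6 FPKM and 117, 88.4 and 91.2 FPKM, a difference of 0.87 ± 0.11 (SE; adjusted p = 0.0183). The 3 values of each gene on high fat diet lay well above those on chow. The calls, unlike the differences, did not hold without some single WT chow libraries, and each omission also made that group smaller. Without WT chow 1 the adjusted p was 0.0864 for Ech1 and 0.107 for Decr1. Without WT chow 2 it was 0.0607 and 0.0649, and without WT chow 3 it was 0.0475 and 0.10 (limma). Over all single omissions the differences ran from 0.70 to 0.81 for Ech1 and from 0.74 to 0.95 for Decr1. Without all 3 lymphocyte-rich chow libraries, which leaves 1 KO chow library, they were 0.79 and 0.89. Averaged over genotypes, Ech1 (0.48, adjusted p = 0.0227) and Decr1 (0.60, adjusted p = 0.0295) passed too (limma). Both lost the call without WT chow 2 or 3, WT high fat 2 or 3, KO chow 1 or any 1 of the KO high fat libraries, with adjusted p-values from 0.0525 to 0.113 (limma). Without the lymphocyte-rich libraries the differences were 0.53 for Ech1 and 0.66 for Decr1. Under quantile normalization Ech1 lost the call as well (0.35, adjusted p = 0.0766 by limma).

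In KO mice the same 20 genes had 3 higher and 0 lower at an unadjusted p under 0.05, where 6.56% of all genes were higher, with a median difference of 0.145 (0.029 over all genes, and −0.00053 for the list under quantile normalization). The 3 became 0 without KO high fat 3 or under quantile normalization, 1 without KO high fat 2 and 5 without KO chow 3. Ech1 was at 170, 159 and 177 FPKM in KO chow and 186, 198 and 192 FPKM in KO high fat libraries, so that its diet groups did not overlap in KO mice either. The KO effect minus the WT effect was −0.58 for Ech1 (adjusted p = 0.408) and −0.55 for Decr1 (adjusted p = 0.593, limma). It was below 0 for 18 of 20 genes, 12 of them at an unadjusted p under 0.05, where 2.7% of all genes were, and the median was −0.56 (0.026 over all genes). That count of 12 was 6 without WT chow 3, KO chow 3 or KO high fat 1, and 7 without WT high fat 1. Without the lymphocyte-rich chow libraries 1 KO chow library remained, so no count is given for that fit.

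Between genotypes the list's sign differed by diet. On normal chow 7 of 20 genes were higher in KO and 0 lower at an unadjusted p under 0.05 (6.73% and 9.93% of all genes), and on high fat diet 2 were higher and 10 lower (9.79% and 6.45%). The medians were 0.26 and −0.40, against −0.025 and −0.011 over all genes. The gene with the lowest p on normal chow was the fatty acid transporter Cd36, with means of 155 ± 24.5 FPKM for WT and 238 ± 42.4 FPKM for KO (SD, n = 3), with an adjusted p of 0.263 by limma. Cd36 is also abundant in adipocytes, and white adipocyte markers summed to 603 to 2171 FPKM in WT chow and 2078 to 4513 FPKM in KO chow libraries, whose part was not tested. When single libraries were left out, the 7 ran from 5 to 11, the latter without KO chow 2. Without the lymphocyte-rich libraries 1 KO chow library remained, too few for a count. Without WT high fat 1, 6 genes in place of 12 were called on high fat diet, in both directions together. On high fat diet Ech1 was lower in KO by −0.40 (adjusted p = 0.0760 by limma), without overlap.

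**Figure D3:**
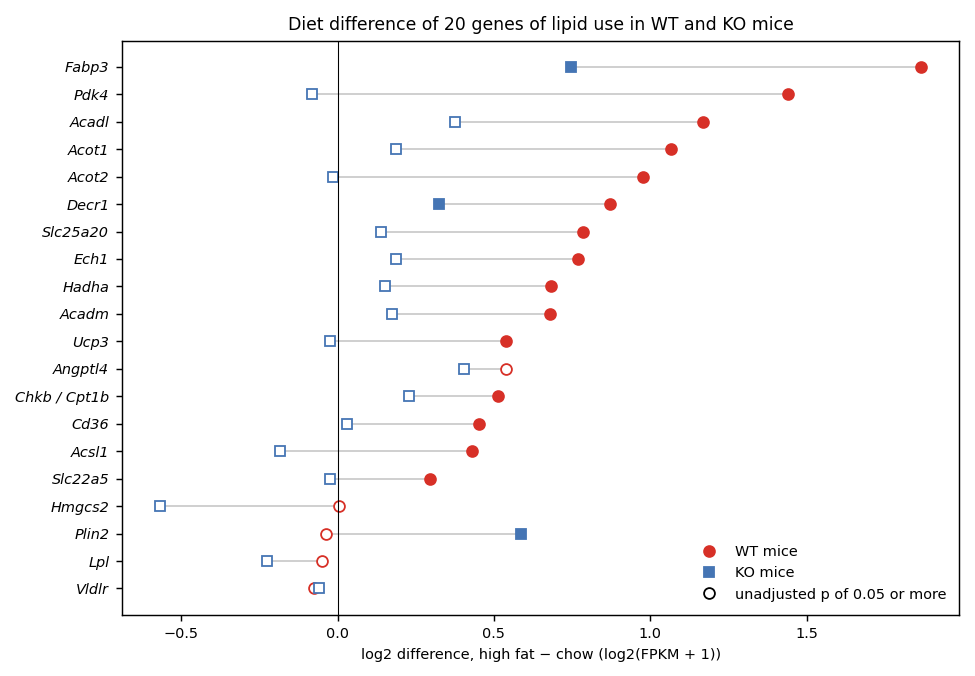
High fat minus chow difference of 20 genes of lipid use in WT mice (circles) and KO mice (squares), in log2(FPKM + 1), with filled symbols where the unadjusted p is under 0.05. For 15 genes the WT symbol is filled, and for 3 the KO symbol; Chkb and Cpt1b share 1 row.

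Among the respiratory chain and citric acid cycle genes, the classic targets of Nrf1, Gabpa and Esrra, all 15 had a negative KO minus WT difference averaged over diets, 14 at an unadjusted p under 0.05 (13.4% of all genes), with a median of −0.31 against −0.022 over all genes, and 0 passed the adjusted threshold by limma. The 14 became 7 without WT chow 1 or KO chow 1 and 8 under quantile normalization. Without the 3 lymphocyte-rich libraries, which leaves 1 KO chow library, all 15 differences were still below 0, with a median of −0.24. On high fat diet, where those libraries do not enter the means, 7 of 15 were lower and 0 higher at an unadjusted p under 0.05. Of all genes, 6.45% were lower and 9.79% higher. The list's median was −0.37, against −0.011 over all genes. The 7 became 1 without WT high fat 1, and 2 without KO high fat 1 or KO high fat 2. It was 4 without KO chow 3 or KO high fat 3, and single omissions gave from 1 to 10. On normal chow 2 of 15 were lower, where 9.93% of all genes were, and this count ran from 0, without WT chow 1, KO chow 1 or KO chow 3, to 10, without WT high fat 1. It was 7 without KO chow 2 and 1 without WT chow 3, WT high fat 3, KO high fat 1 or KO high fat 2. By diet the medians were 0.26 in WT and 0.22 in KO (0.11 and 0.030 under quantile normalization), and the latter was 0.0028 without the lymphocyte-rich libraries. Over the diet effects themselves, 0 of 15 differed between genotypes at an unadjusted p under 0.05. Averaged over diets, 6 of 7 white adipocyte and 6 of 6 macrophage markers were higher in KO at an unadjusted p under 0.05. Of all genes 13.1% were. The part of these cells in the respiratory chain values was not tested.

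Genes that maintain and transcribe mitochondrial DNA, the work Tfam takes part in, gave a like picture. Averaged over diets all 16 had a KO minus WT difference below 0, 8 with an unadjusted p under 0.05 (13.4% of all genes were lower so), and the median was −0.19 (−0.022 over all genes). The 8 became 5 without WT high fat 1 or KO chow 1. Without the lymphocyte-rich libraries 1 KO chow library remained, so no count is given for that fit. The exonuclease gene Mgme1, listed as 8430406I07Rik, passed the adjusted threshold, at 5.0 ± 0.548 and 4.69 ± 0.0367 FPKM in WT chow and high fat and 3.63 ± 0.488 and 3.55 ± 0.40 FPKM in the KO groups (SD, n = 3). Its difference was −0.35 ± 0.070 (SE; adjusted p = 0.0498 by limma), and the call was lost without WT chow 1 or 3, WT high fat 1 or 2, KO chow 1 or 3, or KO high fat 1 or 2, with adjusted p-values of 0.0755 to 0.129. Without the lymphocyte-rich libraries the difference was −0.29. Tfb1m, an rRNA methyltransferase related to the mitochondrial transcription factors, differed by −0.28 on normal chow (adjusted p = 0.270 by limma). In the average over diets, the 7 fast fibre markers tested and the 5 endothelial markers were all below 0 too. Their medians were −0.19 and −0.16. Skeletal muscle markers had 5 of 7 below 0, and slow and oxidative fibre markers 6 of 8 above 0. White adipocyte, macrophage, lymphocyte and Schwann cell markers were all above 0. Among 13 genes of mitochondrial dynamics and import, 13 of 13 were below 0 in the same average, 5 with an unadjusted p under 0.05 (13.4% of all genes). The 5 became 1 without WT chow 1 or WT high fat 1, 2 without KO chow 1 and 3 without KO high fat 2.

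In the remaining lists of the network 0 genes passed the adjusted threshold by limma. Of 17 coactivator partners and corepressors, 1 was higher and 2 were lower, at an unadjusted p under 0.05, in KO than in WT under high fat feeding (9.79% and 6.45% of all genes). Among them the third oestrogen-related receptor gene, Esrrb, was at 1.60, 1.66 and 1.75 FPKM in WT chow and 3.61, 3.17 and 2.75 FPKM in WT high fat libraries, but at 1.45, 2.47 and 2.41 FPKM and 1.64, 2.01 and 1.94 FPKM in KO. Its KO effect minus WT effect was −0.75 (adjusted p = 0.590 by limma). Of 22 upstream kinases, deacetylases and calcium-dependent factors, 0 were called at an unadjusted p under 0.05 by diet in WT or by genotype on normal chow. By diet in KO 2 were higher and 1 lower (6.56% and 4.73% of all genes), by genotype under high fat feeding 2 were higher and 1 lower, and by genotype averaged over diets 2 were higher and 3 lower (13.1% and 13.4%).

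For each regulator the 3 genes with the most similar profile were sought among 11936 genes, by Pearson's r of log2(FPKM + 1) over the 12 libraries. Such a value is the best of many and the libraries share groups, so it describes the profile and carries no test. Ppargc1a was most like Lpin1, which encodes a phosphatidate phosphatase (r = 0.965), then Papd5 (0.948) and Nktr (0.937). Lpin1 was lowest, at 26.0 FPKM, in KO high fat 2, where Ppargc1a was lowest too, and between 39.3 and 59.3 FPKM elsewhere. Esrrg was most like Ucp3, a mitochondrial carrier of muscle (r = 0.878), Fibin (0.860) and the pyruvate dehydrogenase kinase gene Pdk4 (0.849), which was at 96.5 to 111 FPKM in WT chow and 183 to 399 FPKM in WT high fat libraries. Ppargc1b was most like Slc25a42, the mitochondrial coenzyme A carrier (0.926), Alad (0.908) and the fatty acid oxidation gene Hadh (0.898).

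Esrra had Ppp5c (0.977), Lsm14b (0.977) and the complex I gene Ndufa8 (0.976) nearest, and Tfam had Psme3 (0.971), Srp68 (0.968) and Cct7 (0.965). Ppara was nearest to Stmn2 (0.895), Acad11 (0.874), an acyl-CoA dehydrogenase gene, and Notch1 (0.869). Ppard was nearest to Zfp777 (0.941), Fbxo45 (0.939) and Pnpla7 (0.938). Nrf1 had 4930430F08Rik (0.946), Acyp1 (0.923) and Zfp566 (0.916), and Gabpa had the joined row of Ntn3 and Tbc1d24 (0.935), Tnrc6c (0.895) and Zfp597 (0.894).

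**Figure D4:**
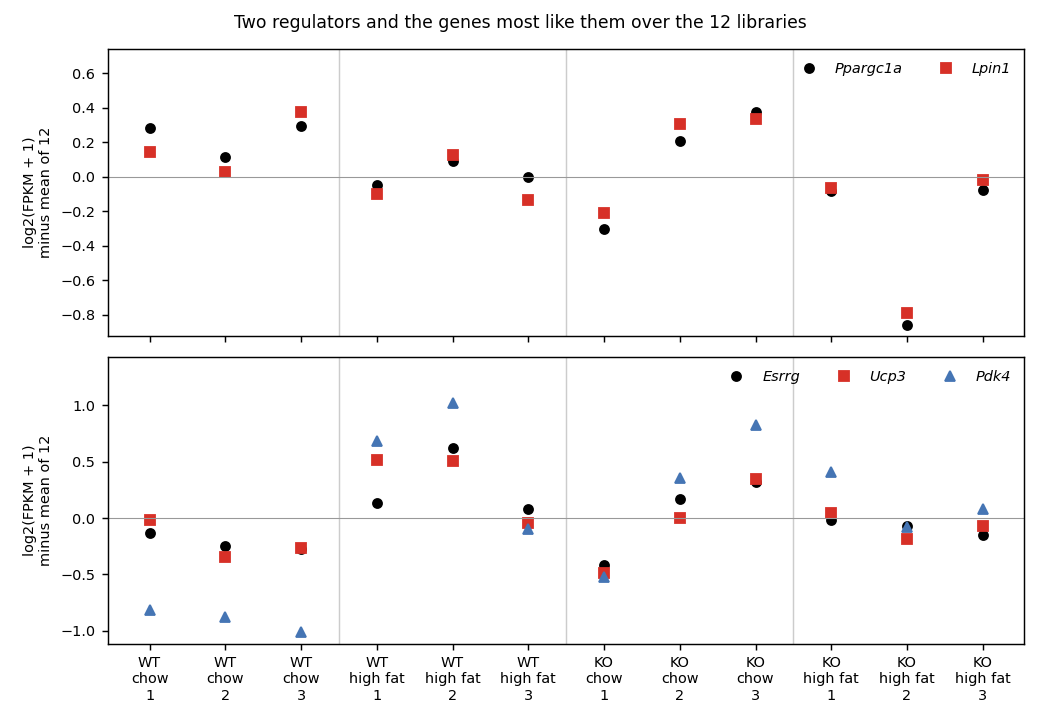
Profiles over the 12 libraries of Ppargc1a with Lpin1 (top) and of Esrrg with Ucp3 and Pdk4 (bottom), as log2(FPKM + 1) minus the mean of 12. Ppargc1a and Lpin1 drop together in KO high fat 2, and the Esrrg points are above 0 in WT high fat, KO chow 2 and KO chow 3 and below it in the other 7 libraries.

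By library, several extremes of the 9 regulators fell in the same samples. KO high fat 2 held the lowest Ppargc1a, Gabpa and Ppara, and WT high fat 1 the highest Ppargc1b, Esrra and Tfam. KO chow 3 held the lowest Tfam and Ppard and the highest Ppargc1a and Ppara, and KO chow 1 the lowest Esrra and Esrrg. These libraries were extremes in other values too. The FPKM total was highest in WT high fat 1 (691621) and lowest in KO chow 3 (484182 without Mir324) and KO chow 1 (499509). Summed macrophage markers were highest in KO high fat 2, at 335 FPKM. Their part in the regulators' extremes was not tested. By group mean, WT high fat was highest for 5 regulators (Ppargc1b, Esrra, Esrrg, Gabpa and Tfam) and lowest for 0, KO high fat was lowest for 3 (Ppargc1a, Gabpa and Ppara) and highest for 0, and KO chow was lowest for 4 (Esrra, Nrf1, Tfam and Ppard). These counts are of means that in most cases differ by less than the spread between libraries.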

How the data were processed

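The authors sequenced paired-end reads on a HiSeq2000 and deposited FPKM values in 23179 rows per library (22923 distinct gene symbols, the row with the highest mean being kept for a repeated symbol; TopHat2 2.0.8b, Cuffdiff 2.1.1 and mm10 are named in the submitters' processing notes). FPKM as the unit follows from values with decimals and from library totals of 484182 to 691621 FPKM without Mir324, which is listed at 10172200 FPKM in KO chow 3 and at 0 elsewhere. Groups were taken from the titles. The genotype label of 6 samples conflicts with them and was run as an alternative. Genes at or above 1 FPKM in at least 3 libraries (11945) were tested as log2(FPKM + 1) with limma 3.58.1 (intensity trend, R 4.3.3), on 4 group means with 8 residual degrees of freedom, two-sided, with Benjamini-Hochberg adjustment and a threshold of 0.05. Such differences understate changes of low genes. Simulated data were used to check the test. The 9 regulators and the 16 lists (165 genes, all matched, 8 of them by an older symbol) were chosen with earlier results of these data known. Named from a list were genes past the threshold or, where there were none, the 3 lowest p-values over the lists. Genes shown for illustration beyond these were Lpin1, Ucp3 and Pdk4, picked from the likeness lists. Ucp1, Cox8b and Elovl3 were shown beside Cidea as the other genes of the brown adipocyte list. The alternatives were another pseudocount, filters, scalings, variance moderation, a replicate block, fits to 2 groups and the omission of libraries. Positions are from GENCODE M21 (GRCm38), promoters from RefSeq. Python 3.11.15 was used for other values.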

Additional observations from a re-analysis of the deposited data

How the results depend on the processing

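No regulator passed the threshold under any alternative run, including the fits that left out 1 library each. The calls of Ech1 and Decr1 by diet in WT were lost in a fit to the 2 groups only (adjusted p = 0.143 and 0.158, limma). Numbers of genes past the threshold over all genes were less stable. Those by the genotype label come from groups that mix WT and KO libraries, as told by Cryab and Hspb2. The omission of the 3 lymphocyte-rich chow libraries was chosen after seeing the data. It leaves 1 KO chow library, so its counts are not given. For diet in WT mice 12 genes became 7 with a replicate block, 3 in a fit to these 2 groups and 0 by the genotype label. For diet in KO mice 0 became 6 with no filter, 9 under quantile normalization (7 higher, 2 lower) and 7 in a fit to 2 groups. For genotype on normal chow 7 (2 higher, 5 lower) became 0 with FPKM of at least 1 in every sample, 4 with the block, 4 in the fit to 2 groups, 0 by the label and 9 under quantile normalization (4 higher, 5 lower). For genotype on high fat diet 13 (9 higher, 4 lower) became 24 with no filter, 0 with every sample, 5 with the block, 26 under quantile normalization (16 higher, 10 lower), 8 in the fit to 2 groups and 0 by the label. For the difference of the diet effects 0 became 1 with no filter. Averaged over genotypes, 7 genes by diet became 1 with the block and 0 by the label. Averaged over diets, 103 by genotype (77 higher, 26 lower) became 42 with no filter, 40 with the block, 200 under quantile normalization (119 higher, 81 lower), 11 without the 3 libraries and 0 by the label. Leaving out 1 library gave 1 to 32, 0 to 10, 4 to 14, 4 to 82, 0 to 1, 1 to 18 and 10 to 1200 genes in the 7 comparisons in this order. The causes were not tested.

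Grouping by the genotype label, which the levels of Cryab and Hspb2 go against, turned the following log2 differences. For diet in WT they were Gabpa −0.19 and Ppara −0.52, and for diet in KO Ppargc1a 0.039, Esrrg 0.30, Gabpa 0.056 and Ppard −0.016. For genotype on normal chow they were Esrrg −0.043 and Ppara −0.033. On high fat diet they were Ppargc1a 0.46, Ppargc1b 0.26, Esrra 0.18, Esrrg 0.21, Nrf1 0.096, Gabpa 0.19, Tfam 0.088, Ppara 0.47, Ppard 0.049, Emr1 −1.18, Ech1 0.30 and Cd68 −1.59. For the difference of the diet effects they were Ppargc1a 0.77, Ppargc1b 0.065, Esrra 0.30, Esrrg 0.26, Gabpa 0.24, Ppara 0.51, Ech1 0.21, Esrrb 0.40 and Decr1 0.39. For genotype averaged over diets they were Ppargc1a 0.073, Esrra 0.026, Esrrg 0.086, Nrf1 0.0027, Gabpa 0.069, Tfam 0.028, Ppara 0.22, Ppard 0.017, Emr1 −0.45 and 8430406I07Rik 0.059. Quantile normalization turned Ppard by diet in KO (−0.011), Nrf1 by diet averaged over genotypes (0.022) and Ppargc1b by genotype averaged over diets (−0.076). Without the 3 lymphocyte-rich libraries Esrra (−0.076) and Ppard (−0.15) by diet in KO, Tfam in the difference of the diet effects (−0.020) and Esrrg by genotype averaged over diets (0.0042) turned.

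Leaving out 1 library turned small differences, with ranges of −0.025 to 0.070 for Gabpa by diet in WT, and by diet in KO −0.32 to 0.046 for Esrrg, −0.040 to 0.14 for Ppard, −0.0018 to 0.11 for Ppargc1b and −0.020 to 0.047 for Nrf1. They were −0.28 to 0.062 for Ppargc1a by genotype on normal chow, and with the other diet −0.12 to 0.0076 for Tfam and −0.061 to 0.041 for Ppard. For the difference of the diet effects they were −0.034 to 0.13 for Tfam, −0.12 to 0.14 for Esrra and −0.41 to 0.044 for Ppargc1a. For diet averaged over genotypes they were −0.043 to 0.0017 for Nrf1, −0.083 to 0.0063 for Ppard and −0.083 to 0.0049 for Gabpa, and for genotype averaged over diets −0.040 to 0.057 for Ppargc1b and −0.13 to 0.050 for Esrrg.

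The replicate block changed no regulator's call, with adjusted p-values (limma) of 0.506 for Ppara by diet in KO, 0.155 for Ppara by genotype on high fat diet and 0.286 for Ppargc1b by diet in WT. With it the calls were lost of Decr1 by diet in WT (0.0592), of Ech1 and Decr1 by diet averaged over genotypes (0.0964 each), and of 8430406I07Rik (0.0907) and Emr1 (0.0581) by genotype averaged over diets. With no filter the last 2 were lost too (0.0874 and 0.0711, limma). Same-numbered libraries correlated from −0.81 to 0.39 in their deviations from the group means. Libraries of unlike number were not compared, so these values cannot decide whether the numbers pair the libraries. Ppargc1b has no value where 1 FPKM was required in every sample. Depth in reads is unknown, which limits what can be said of genes near 1 FPKM such as Ppargc1b and Ppara.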

Other observations

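Of the macrophage markers, 1 passed the adjusted threshold between genotypes, in the average over diets. This macrophage gene Adgre1, listed as Emr1, was at 2.33 to 3.37 FPKM in WT chow, 0.942 to 2.38 FPKM in WT high fat, 3.32 to 4.49 FPKM in KO chow and 5.37 to 8.35 FPKM in KO high fat libraries. It was higher in KO averaged over diets by 0.89 ± 0.16 (SE; adjusted p = 0.0418 by limma), and on high fat diet by 1.38 (adjusted p = 0.0529). The call over both diets was lost without WT chow 1 or 3, KO chow 1 or 3, or KO high fat 1 or 2, with adjusted p-values from 0.0664 to 0.126 (limma). Without the 3 lymphocyte-rich chow libraries the difference was 0.86. Cd68, another macrophage gene, differed by 1.81 on high fat diet (adjusted p = 0.0826 by limma). Of the 6 macrophage markers, 6 were higher in KO at an unadjusted p under 0.05 in the average over diets, where 13.1% of all genes were.

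The brown adipocyte gene Ucp1, the uncoupling protein of heat production, was at 16.2 FPKM in WT chow 2, 7.5 FPKM in KO chow 1 and 6.67 FPKM in KO chow 3, the same 3 libraries that were rich in lymphocyte markers, at 0.746 FPKM in KO chow 2 and at 0.142 FPKM or less in the other 8 libraries. Cidea, another gene of brown fat, was at 29.8, 49.8 and 45.4 FPKM in those 3, at 12.5 FPKM in KO chow 2 and at 0.762 to 2.66 FPKM in the others. Cox8b, also on the brown adipocyte list, did not follow them. It was at 1270 to 1610 FPKM in WT chow and 1489 to 1997 FPKM in WT high fat libraries. In KO chow it was at 977 to 1258 FPKM and in KO high fat libraries at 1040 to 1128 FPKM. Elovl3, from the same list, was at 0.931 FPKM or less in every library. In KO mice the diet difference of Cidea was −3.26 (adjusted p = 0.360), that of the white adipocyte gene Cfd −3.46 (adjusted p = 0.390) and that of the fast myosin light chain gene Mylpf 0.53 (adjusted p = 0.420, limma). Ppargc1a, a known driver of Ucp1 in brown fat, was at 7.56, 5.40 and 9.24 FPKM in WT chow 2, KO chow 1 and KO chow 3. The KO chow 3 value was its highest of 12. Only KO high fat 2, at 3.36 FPKM, lay below KO chow 1, and WT chow 2 was the lowest of its group. The part of brown fat in these values was not tested.

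Of the other marker lists, counted as KO against WT averaged over diets at an unadjusted p under 0.05, 6 of 7 white adipocyte markers were higher and 0 lower. Slow and oxidative fibre markers gave 0 of 8, fast fibre markers 1 lower of 7 tested, skeletal muscle markers 1 higher and 1 lower of 7, brown adipocyte markers 1 higher and 1 lower of 3 tested, and endothelial markers 1 lower of 5. The 7 lymphocyte markers, the 5 Schwann cell markers and the 1 keratinocyte marker tested gave 0. Of all genes 13.1% were higher and 13.4% lower.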
